A study of Mus musculus with 15 samples.

Results

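Macrophages sorted from sympathetic nerve fibers, which had been isolated from subcutaneous adipose tissue (SAM fibers), were compared with macrophages sorted from subcutaneous fat itself (sATM). The comparison rests on 4 of the 15 libraries of the series, 2 of SAM fibers and 2 of sATM, and was described over the 15289 genes that passed a filter on low counts, out of 24084 in the deposited table. Every sample title also carries the term ND, which the labels do not spell out. All mice were C57BL/6J, and every group consisted of F4/80+CD45+ cells sorted ex vivo and profiled by low-input RNA sequencing. Nerve fibers had been treated with hyaluronidase for 30 minutes and then with collagenase for 15 minutes, whereas subcutaneous fat had been treated with collagenase for 30 minutes, all at 37 °C. Tissue and enzyme treatment therefore differed together between SAM fibers and sATM and cannot be told apart. A second nerve and fat pair, 3 libraries of macrophages from sympathetic ganglia (SAM ganglia) and 2 of macrophages from visceral fat (vATM), shares no library with the first and is set beside it. Ganglia had been treated with collagenase for 10 minutes and then with trypsin for 30 minutes, and visceral fat with collagenase for 30 minutes. The remaining libraries, 3 of spleen macrophages and 3 of microglia, entered the filter on low counts, the scaling and the shared estimate of the spread, but neither comparison. Tissues came from 10 mice, and the labels do not say whether replicate libraries came from separate animals, so p-values rest on how far libraries of a group lay apart, possibly for technical reasons.

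Macrophages that lie along sympathetic axons are placed where norepinephrine is released, and macrophages of adipose tissue lie among adipocytes and vessels. Immediate-early genes encode transcription factors that are switched on rapidly by many stimuli without new protein synthesis, including growth factors, microbial products and tissue dissociation. Chemokines such as Ccl4 and Cxcl1 recruit leukocytes, while Retnla and the Cd209 lectins are known from resident and alternatively activated macrophages.

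Sequencing depth was low after the authors removed DNA contamination. The raw gene-body counts totalled 25.5 M and 13.8 M in SAM fibers, against 7.79 M and 16.9 M in sATM. Raw counts of single genes below are not scaled to these totals. Raw log2 fold changes come from an edgeR fit with TMM scaling, which is not a scaling to these totals. Their median over all tested genes was -0.63, so a negative sign alone does not place a gene below the median tested gene. The 15 libraries held 2.55 M to 12.5 M corrected counts, of which 46.1 to 71.5% fell on Rn45s, Lars2 and Mir6236, genes that collect ribosomal RNA reads. The SAM fibers libraries held 4.05 M and 4.30 M corrected counts, against 4.42 M and 8.38 M in sATM, and 3 counts corresponded to 0.897 and 0.625 CPM (counts-per-million values) in SAM fibers, against 0.764 and 0.345 CPM in sATM. Raw reads over olfactory receptor genes, which macrophages are not known to express, came to 1233 and 686 CPM of the raw counts in SAM fibers, against 101 and 312 CPM in sATM. Among genes with at least 100 raw gene-body counts in a library, 40.0 and 21.5% were listed at exactly 0 in the corrected table in SAM fibers, against 8.12 and 14.3% in sATM and 3.99 to 24.7% in the other groups. Across the tested genes the 2 SAM fibers libraries correlated with each other at r = 0.68 on the log2(CPM + 1) scale, and the 2 sATM libraries at r = 0.91. SAM fibers replicate 1 stood apart from every other library (r = 0.44 to 0.68), whereas SAM fibers replicate 2 correlated with the sATM libraries at r = 0.82. Counts of called genes are given without it below, and counts within gene lists where leaving out one of the 4 libraries moved them by over 1.5 times.

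Of the tested members of each list, 14 of 23 immediate-early genes, 9 of 19 feedback inhibitors of inflammatory signalling, 5 of 14 macrophage cytokines, 5 of 13 CC chemokines and 4 of 11 CXC chemokines rose in SAM fibers, while 2 CC chemokines, Retnla, Cd209f, Cd209g and Ear2 fell. Called genes are those with a Benjamini-Hochberg adjusted p below 0.05 in edgeR's quasi-likelihood test whose log2 fold change was 1 or more in either direction. By this rule 283 genes rose in SAM fibers (1.85% of those tested) and 457 fell (2.99%), with a median log2 fold change of 0 over all tested genes. The 2 groups did not overlap for 282 of the 283 higher genes and for all 457 lower genes, while 26.6% of all tested genes had both SAM fibers libraries above both sATM libraries and 24.6% had both below. Of the called genes 38.2% were higher under TMM scaling, against 57.1% (374 higher, 281 lower) under the size factors of DESeq2, which moved the median of all genes to 0.28. The share was 59.3% on log2(RPKM + 1), 95.4% under limma's voom with quality weights (103 higher, 5 lower) and 50.4% with genes at 0 in spite of at least 100 raw counts left out (339 higher, 334 lower).

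**Figure D1:**
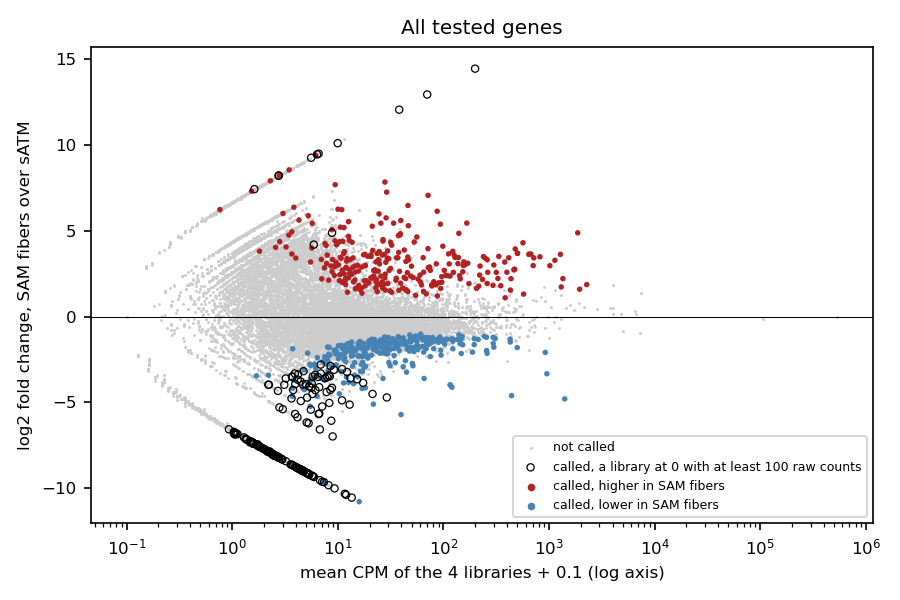
Log2 fold change of SAM fibers over sATM (vertical axis) against the mean level of the 4 libraries in CPM + 0.1 (horizontal axis, log scale) for the 15289 tested genes. Red points are the called genes higher in SAM fibers, blue points the called genes lower in SAM fibers, and open circles the called genes, 12 higher and 171 lower, that are at 0 in a library holding at least 100 raw counts of the gene.

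The counts of called genes depended on single libraries. Without SAM fibers replicate 1, 253 genes were higher and 218 lower, and without SAM fibers replicate 2, 464 were higher and 2515 lower. Without sATM replicate 1, 97 were higher and 275 lower, and without sATM replicate 2, 96 were higher and 170 lower. Leaving out vATM replicate 1 or 2, which enter through the shared spread, gave 161 or 160 higher and 250 lower genes each. Called in all 15 of these leave-one-out fits were 40 of the 283 higher genes (14.1%) and 90 of the 457 lower genes (19.7%). DESeq2 called 1027 higher and 796 lower genes. A fit of the 4 libraries alone by edgeR called 0 genes in either direction, with 1539 genes at an unadjusted p under 0.05, and a fit of the raw gene-body counts also called 0, with 2854 at an unadjusted p under 0.05. The fit of all 15 libraries had 3286 genes at an unadjusted p under 0.05.

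Genes listed at 0 in the corrected table in spite of at least 100 raw counts made up a larger share of the lower calls than of all tested genes. The raw counts span whole gene bodies, introns included, and the corrected counts a shorter length, so counting region and DNA correction differ together between the 2 tables and cannot be told apart. Of the 457 lower genes 171 (37.4%) were at 0 in a SAM fibers library in spite of at least 100 raw counts there, 168 of them in replicate 1, 84 in replicate 2 and 81 in both. Of the 283 higher genes 12 (4.24%) had such a 0, each in sATM, and over all tested genes the share was 23.5%. In the raw gene-body counts the median log2 fold change of SAM fibers over sATM was -0.72 for the 171 lower genes with such a 0 and -2.31 for the 286 without, of which 136 (79.5%) and 283 (99.0%) were lower in the raw counts, against 63.5% of all tested genes. It was 0.61 for the 271 higher genes without such a 0, 196 of which were higher in the raw counts, and -0.63 for all tested genes. Hsp90aa1, an abundant cytosolic chaperone, was called higher against such values of 0. It was at 90.9 and 189 CPM in SAM fibers and was listed at 0 in both sATM libraries, all 3 SAM ganglia libraries and both vATM libraries, but had 846 and 3245 raw counts in SAM fibers, against 2182 and 6241 raw counts in sATM. Its raw log2 fold change was -2.47, opposite to the call.

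**Figure D2:**
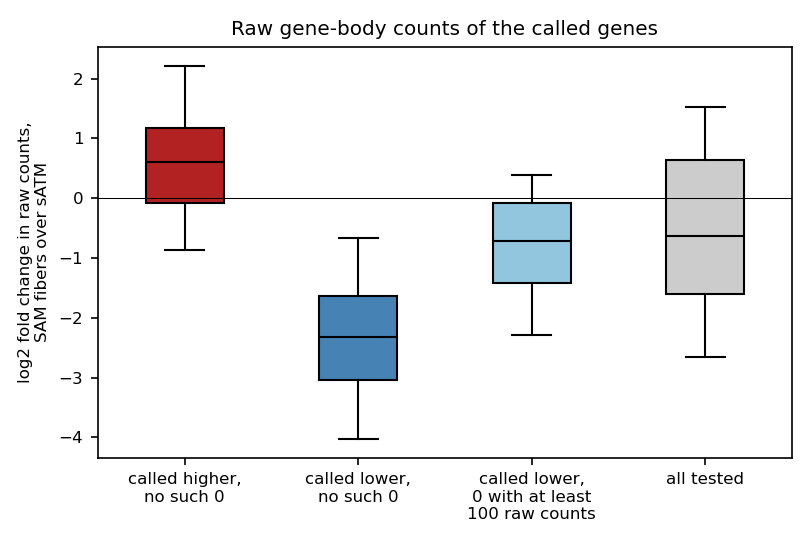
Log2 fold change of SAM fibers over sATM in the raw gene-body counts (vertical axis) for 4 sets of genes. Boxes span the quartiles with the median as a line, and whiskers reach the 5th and 95th percentiles. The medians are 0.61 for called higher genes without a 0 of the kind described, -2.31 for called lower genes without one, -0.72 for called lower genes with one and -0.63 for all tested genes.

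The genes of the sorted proteins were present in all 4 libraries. Adgre1, which encodes F4/80, was at 181 and 227 CPM in SAM fibers, against 129 and 193 CPM in sATM (log2 fold change 0.34 ± 0.30 (SE), adjusted p = 0.458; values after ± in parentheses are the SE of a log2 fold change throughout), and Ptprc, which encodes CD45, at 193 and 336 CPM in SAM fibers, against 951 and 417 CPM in sATM (-1.37 ± 0.40, adjusted p = 0.0625). Ptprc passed the test as lower without SAM fibers replicate 2 or sATM replicate 2. None of the 20 macrophage core genes was at 0 in any of the 4 libraries, their summed level was 10821 and 11995 CPM in SAM fibers, against 14335 and 16364 CPM in sATM, and 1 of 20 was called higher and 1 lower with a median log2 fold change of 0.16. The number called lower was 0 without SAM fibers replicate 1 or sATM replicate 1 and 2 without SAM fibers replicate 2, and the median was -0.40 without sATM replicate 1. The higher gene was Cd14, the lipopolysaccharide co-receptor, at 208 and 1162 CPM in SAM fibers, against 51.9 and 99.7 CPM in sATM (log2 fold change 3.17 ± 0.59 (SE), adjusted p = 0.00705). Without sATM replicate 1 its adjusted p was 0.11.

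**Figure D3:**
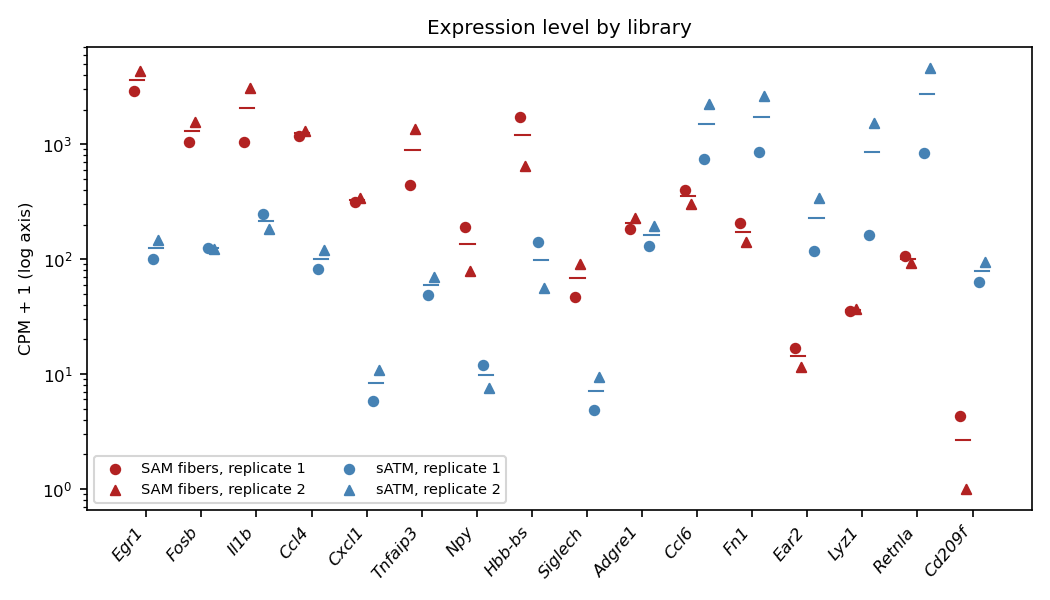
Level of 16 genes in each library as CPM + 1 (vertical axis, log scale), with SAM fibers in red left of sATM in blue, circles for replicate 1, triangles for replicate 2 and a bar at the mean of the 2. Egr1, Fosb, Ccl4 and Cxcl1 sit at least several-fold above sATM in both SAM fibers libraries, Retnla, Lyz1, Ear2 and Cd209f sit below it, and Adgre1 lies close together in all 4.

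Immediate-early genes rose together in the corrected counts. Of 23 tested members 14 were called higher and 0 lower, the median log2 fold change was 2.21 against 0 for all tested genes, and all 23 had both SAM fibers libraries above both sATM libraries, against 26.6% of all tested genes. Not all called members were higher in the raw counts, with log2 fold changes of -0.96 for Jund and -0.76 for Ier5, while Junb was barely higher at 0.05. Raw log2 fold changes of Egr1, Egr3, Fosb, Ier2, Btg2 and Csrnp1, described next, were 0.43 to 3.50. Egr1, a zinc-finger transcription factor and the most abundant of the early growth response genes here in CPM, was at 2918 and 4308 CPM in SAM fibers, against 99.6 and 147 CPM in sATM. Every SAM fibers value lay above every sATM value by more than an order of magnitude (log2 fold change 4.87 ± 0.48 (SE), adjusted p = 0.000215). Its paralog Egr3 was at 174 and 170.3 CPM in SAM fibers, against 0.509 and 3.91 CPM in sATM (log2 fold change 6.13 ± 1.04 (SE), adjusted p = 0.00387). Fosb, which encodes a subunit of the AP-1 transcription factor, was at 1055 and 1567 CPM in SAM fibers, against 124 and 122 CPM in sATM. The sATM values of Fosb were nearly equal and far below both SAM fibers values (log2 fold change 3.42 ± 0.46 (SE), adjusted p = 0.00118). Ier2 was at 1538 and 1471 CPM in SAM fibers, against 148 and 122 CPM in sATM (3.48 ± 0.37), and the antiproliferative gene Btg2 at 938 and 1571 CPM in SAM fibers, against 142 and 179 CPM in sATM (2.97 ± 0.35). Csrnp1, a nuclear protein gene induced by AXIN1, was at 251 and 627 CPM in SAM fibers, against 38.7 and 39.4 CPM in sATM, higher in replicate 2 than in replicate 1 of SAM fibers but without overlap with sATM (3.49 ± 0.45). These 6 genes were called in all 15 leave-one-out fits. The number of called members was 16 without SAM fibers replicate 1, 11 without replicate 2, 10 without sATM replicate 1 and 8 without sATM replicate 2.

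Heat-shock chaperones did not follow as a group. Of 14 tested members 2 were called higher and 0 lower, with a median of 0.84, and the median was -0.15 without SAM fibers replicate 2. Without SAM fibers replicate 1, 5 were called higher, and 1 was without either sATM library. Hspa1a, the inducible Hsp70 gene, was at 1738 and 3365 CPM in SAM fibers, against 1799 and 1649.8 CPM in sATM (0.57 ± 0.37, adjusted p = 0.353), with replicate 1 of SAM fibers inside the range of sATM. Dnajb1, an Hsp40 co-chaperone, was at 337 and 429.9 CPM in SAM fibers, against 69.3 and 102 CPM in sATM (log2 fold change 2.16 ± 0.38 (SE), adjusted p = 0.00478), but its raw counts gave -0.20, and without sATM replicate 1 its adjusted p was 0.131. The other called member was Hsp90aa1, whose sATM values of 0 are described above.

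The CC chemokines split by direction. Of 13 tested members 5 rose, 2 fell and the median was 1.37. Ccl4, which encodes the leukocyte attractant MIP-1β, was at 1183 and 1309 CPM in SAM fibers, against 80.7 and 119 CPM in sATM (log2 fold change 3.64 ± 0.46 (SE), adjusted p = 0.000949), and both SAM fibers values were within a narrow range and far above sATM. Ccl3, its neighbour and close relative, was at 536 and 1104 CPM in SAM fibers, against 154 and 90.5 CPM in sATM (2.75 ± 0.40), and Ccl12, a mouse ligand of CCR2, at 172 and 369.5 CPM in SAM fibers, against 2.80 and 15.3 CPM in sATM (4.84 ± 0.66). These 3 were called in all 15 leave-one-out fits. The 2 that fell were Ccl6, at 402 and 301 CPM in SAM fibers, against 736 and 2248 CPM in sATM (-2.09 ± 0.49), and Ccl8, at 6.87 and 10.2 CPM in SAM fibers, against 21.4 and 139.9 CPM in sATM (-3.23 ± 0.72). The sATM values of both differed widely between replicates. Without SAM fibers replicate 1 their adjusted p was 0.0642 for Ccl6 and 0.0666 for Ccl8, and without sATM replicate 2 it was 0.254 and 0.369. Without sATM replicate 1, 3 members were called higher and 3 lower.

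Of 11 tested CXC chemokines 4 rose and 0 fell, with a median of 3.57, and 2 were called higher without sATM replicate 1. Cxcl1, a ligand of the neutrophil receptor CXCR2, was at 311 and 339 CPM in SAM fibers, against 4.84 and 9.77 CPM in sATM (log2 fold change 5.44 ± 0.86 (SE), adjusted p = 0.0024), called in all 15 leave-one-out fits. Cxcl2, a second CXCR2 ligand encoded beside it on chromosome 5, was at 331 and 466 CPM in SAM fibers and was listed at 0 in both sATM libraries. Since Cxcl2 had 4818 and 27105 raw counts in SAM fibers, against 407 and 3249 raw counts in sATM, these 2 values of 0 may be failed estimates and no fold is given. Cxcl10, a ligand of CXCR3, was at 96.8 and 368 CPM in SAM fibers, against 22.9 and 16.3 CPM in sATM (3.57 ± 0.65, adjusted p = 0.00625), and that p was 0.0515 without sATM replicate 1 and 0.0828 without replicate 2. Cxcl16, a membrane-bound ligand of CXCR6, was at 189 and 356 CPM in SAM fibers, against 23.2 and 45.9 CPM in sATM (2.97 ± 0.50, adjusted p = 0.00358, and 0.0885 without sATM replicate 1).

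Among macrophage cytokines 5 of 14 tested members rose and 0 fell, with a median of 3.10 that was 0.00 without SAM fibers replicate 2. Il1b, which encodes a pyrogenic cytokine released after inflammasome cleavage, was at 1050.0 and 3070.4 CPM in SAM fibers, against 245 and 181 CPM in sATM (log2 fold change 3.27 ± 0.55 (SE), adjusted p = 0.00352), and without sATM replicate 2 its adjusted p was 0.068. Il1a, its relative that can signal without cleavage, was at 19.7 and 264 CPM in SAM fibers, against 0 and 1.72 CPM in sATM. Il1a was far higher in replicate 2 than in replicate 1 of SAM fibers and low in sATM, with 0 and about 15 corrected counts, (log2 fold change 7.05 ± 1.16 (SE), adjusted p = 0.00316), and was called in all 15 leave-one-out fits. Tnf was at 133 and 375 CPM in SAM fibers, against 9.93 and 36.3 CPM in sATM (3.44 ± 0.57, adjusted p = 0.0035, and 0.0529 without sATM replicate 1). Il10, an anti-inflammatory cytokine, was at 51.1 and 103 CPM in SAM fibers, against 2.29 and 1.03 CPM in sATM (5.59 ± 1.25, adjusted p = 0.0291), and its adjusted p was 0.0689 without SAM fibers replicate 2, 0.124 without sATM replicate 1 and 0.192 without sATM replicate 2. The number of called members was 2 without either sATM library.

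Feedback inhibitors of inflammatory signalling rose alongside, with 9 of 19 tested members called higher, 0 lower and a median of 1.72. Not all called members were higher in the raw counts, which gave -0.82 for Dusp1 and -0.64 for Nfkbie. They gave 1.31 for Tnfaip3, 0.77 for Socs3 and 0.23 for Nfkbiz, against a median of -0.63 over all tested genes. Tnfaip3, which encodes the ubiquitin-editing enzyme A20 that restrains NF-kappaB, was at 438 and 1358 CPM in SAM fibers, against 48.1 and 69.2 CPM in sATM. Its SAM fibers values differed about as widely from each other as those of Il1b, yet both were well above sATM (log2 fold change 3.93 ± 0.55 (SE), adjusted p = 0.00136), and it was called in all 15 leave-one-out fits. Socs3, an inhibitor of JAK and STAT signalling, was at 196 and 369.7 CPM in SAM fibers, against 44.6 and 26.3 CPM in sATM (3.0 ± 0.46). Nfkbiz, which encodes the nuclear IkappaB protein IkappaB-zeta, was at 1058 and 2549 CPM in SAM fibers, against 315 and 149 CPM in sATM (2.96 ± 0.48). Without sATM replicate 2, 1 member was called, with an adjusted p of 0.0584 for Socs3 and 0.0515 for Nfkbiz, and without sATM replicate 1, 5 were called. Cytokines, heat-shock chaperones and feedback inhibitors were lower in replicate 1 than in replicate 2 of SAM fibers, by a median log2 difference of -1.40, -1.55 and -1.27, against -0.02 over all tested genes. Of the Toll-like receptors and adaptors 2 of 15 were called higher and 2 lower. Both lower ones are at 0 in spite of at least 100 raw counts, and 0 were lower with such genes left out, without SAM fibers replicate 1 or without sATM replicate 2. Without sATM replicate 1, 1 was higher and 1 lower, and without SAM fibers replicate 2, 2 were higher and 3 lower. Tlr2, the receptor for bacterial lipopeptides, was at 321 and 745 CPM in SAM fibers, against 76.4 and 57.0 CPM in sATM (log2 fold change 3.0 ± 0.38 (SE), adjusted p = 0.000949).

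**Figure D4:**
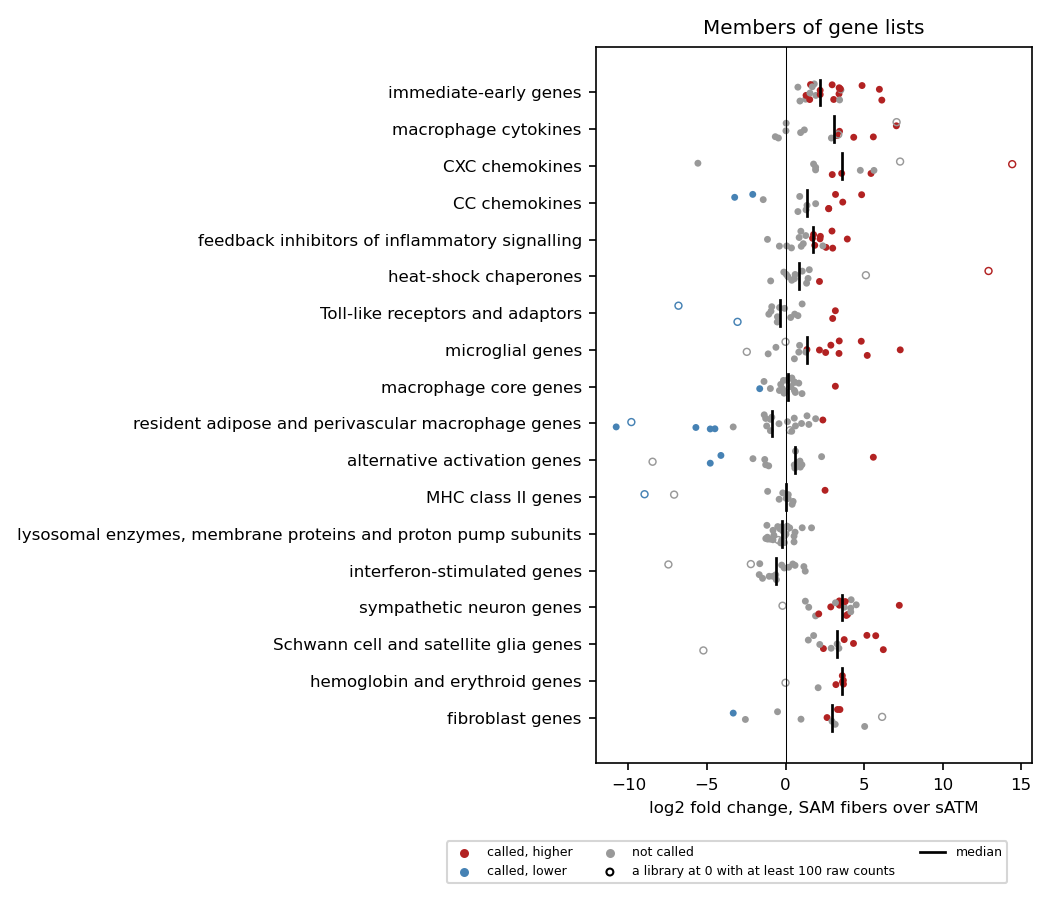
Log2 fold change of SAM fibers over sATM (horizontal axis) for the tested members of 18 gene lists (vertical axis), 1 point for each member. Red points are called higher, blue called lower and grey not called, open points have a library at 0 with at least 100 raw counts, and the black bar is the list's median. All immediate-early members lie right of 0 with a median of 2.21, while macrophage core genes centre on 0.16.

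The promoters of 5 of these genes, spanning 250 bases before to 50 bases after the annotated start, are printed because they hold matches to motifs of the transcription factors that inflammatory and immediate-early genes are known for. The genes were picked among the higher ones for holding a match, so the matches are a description. The sequences are RefSeq's, in build GRCm38.p6, and read 5′ to 3′ along the gene. Capitals mark matches, on either strand, to the kappaB motif, GGG and TTCC with any 3 bases between them, in Cxcl1, Cxcl2 and Tnfaip3, to the AP-1 motif TGANTCA in Il1a and Tnfaip3, and to the CRE motif TGACGTCA in Btg2. Where 2 kappaB matches overlap they form a single run of capitals.
Cxcl1, chr5:90890995-90891294, plus strand: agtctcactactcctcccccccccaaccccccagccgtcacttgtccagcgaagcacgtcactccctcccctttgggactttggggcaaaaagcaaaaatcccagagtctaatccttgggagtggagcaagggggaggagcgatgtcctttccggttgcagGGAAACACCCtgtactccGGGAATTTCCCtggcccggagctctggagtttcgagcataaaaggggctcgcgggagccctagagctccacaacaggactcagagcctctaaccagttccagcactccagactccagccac
Cxcl2, chr5:90903649-90903948, plus strand: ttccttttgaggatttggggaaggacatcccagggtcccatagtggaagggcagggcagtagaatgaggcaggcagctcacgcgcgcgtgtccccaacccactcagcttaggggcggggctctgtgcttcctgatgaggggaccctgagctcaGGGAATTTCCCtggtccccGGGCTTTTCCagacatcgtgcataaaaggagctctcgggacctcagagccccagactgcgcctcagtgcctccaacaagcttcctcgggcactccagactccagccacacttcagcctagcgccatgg
Tnfaip3, chr10:19015361-19015660, minus strand: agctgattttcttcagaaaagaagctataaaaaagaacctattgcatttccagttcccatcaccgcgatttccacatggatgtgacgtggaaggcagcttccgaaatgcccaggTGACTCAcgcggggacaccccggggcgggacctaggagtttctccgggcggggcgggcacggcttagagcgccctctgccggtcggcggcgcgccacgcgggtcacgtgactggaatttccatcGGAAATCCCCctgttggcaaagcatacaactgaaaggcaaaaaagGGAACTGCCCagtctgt
Il1a, chr2:129309923-129310222, minus strand: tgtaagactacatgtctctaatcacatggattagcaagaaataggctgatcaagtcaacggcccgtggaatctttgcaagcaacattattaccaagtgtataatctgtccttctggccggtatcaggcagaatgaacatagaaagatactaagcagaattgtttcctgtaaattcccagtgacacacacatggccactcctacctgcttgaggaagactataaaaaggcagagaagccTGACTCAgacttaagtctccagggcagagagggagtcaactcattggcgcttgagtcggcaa
Btg2, chr1:134079106-134079405, minus strand: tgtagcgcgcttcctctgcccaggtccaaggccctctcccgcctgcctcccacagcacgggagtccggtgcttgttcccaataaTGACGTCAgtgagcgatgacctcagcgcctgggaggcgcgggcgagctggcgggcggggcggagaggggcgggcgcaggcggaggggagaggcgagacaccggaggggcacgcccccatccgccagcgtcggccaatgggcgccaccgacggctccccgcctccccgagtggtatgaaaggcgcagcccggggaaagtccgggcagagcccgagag

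In Cxcl1 the overlapping kappaB matches begin 71 and 70 bases before the start and a further match begins 89 bases before it, and in Cxcl2 the overlapping matches begin 97 and 96 bases before the start with a further one at 78 bases. Tnfaip3 has a kappaB match 12 bases before this start, another inside the gene, and an AP-1 match 136 bases before it. A second annotated start of Tnfaip3 holds a kappaB match as well and is not printed. Il1a has an AP-1 match 12 bases before its start and Btg2 a CRE match 166 bases before its start. A window was at hand for 206 of the 283 higher genes, 361 of the 457 lower genes and 11673 of the 15289 tested genes. The kappaB motif was present in 13.6% of the higher, 7.20% of the lower and 6.67% of all tested genes with a window, and in 5.56% of all 32851 windows. The CRE motif was present in 7.77% of the higher, 1.66% of the lower and 3.09% of all tested genes, and in 1.79% of all windows. The AP-1 motif was present in 8.74, 6.65 and 7.38% of these genes and in 7.81% of all windows, and the CArG box, the site of serum response factor, in 2.43, 1.39 and 1.57% and in 1.63% of all windows. A gene counted when any of its windows held a match, so shares of genes and of single windows are unlike measures. Over all 27025 genes with a window the shares were 6.3% for kappaB, 2.03% for CRE, 8.97% for AP-1 and 1.81% for CArG. These shares describe letters in the windows and say nothing of whether a factor was bound.

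Genes of resident adipose and perivascular macrophages included Retnla and several Cd209 lectins, which fell. Of 23 tested members 5 fell and 1 rose, with a median of -0.87, and in bulk libraries fewer cells of a type and less RNA in each cell cannot be told apart. Retnla, a secreted cysteine-rich protein of the resistin family induced by interleukin-4, was at 106 and 91.0 CPM in SAM fibers, against 837 and 4602 CPM in sATM. Both SAM fibers values were close together and below both sATM values, which themselves differed widely (log2 fold change -4.79 ± 0.94 (SE), adjusted p = 0.00939). Without sATM replicate 2 the log2 fold change of Retnla was -3.19 with an adjusted p of 0.0524, and without SAM fibers replicate 1 it was -5.02 with an adjusted p of 0.027. Cd209f, a C-type lectin gene of the DC-SIGN family, was at 3.29 and 0 CPM in SAM fibers, against 62.1 and 92.8 CPM in sATM (log2 fold change -5.70 ± 1.05 (SE), adjusted p = 0.0066), with 37 and 15 raw counts in SAM fibers, against 328 and 1372 raw counts in sATM. Cd209g, a neighbouring gene of that family, was at 0 in both SAM fibers libraries, against 23.9 and 39.3 CPM in sATM. Taking 3 corrected counts over both SAM fibers libraries as the floor, Cd209g was at least 85.9-fold lower in the corrected counts (adjusted p = 0.00786). This floor takes the corrected values of 0 as observed and leaves out any error of the DNA correction. The raw counts of Cd209g were 41 and 11 in SAM fibers, against 138 and 573 in sATM, with a raw log2 fold change of -5.73. Cd209f and Cd209g were called in all 15 leave-one-out fits. Fcna, which encodes the lectin ficolin-A, was at 1.20 and 0.625 CPM in SAM fibers, against 4.33 and 34.7 CPM in sATM (-4.49 ± 0.87, adjusted p = 0.00846, and 0.151 without sATM replicate 2). The fifth member that fell, Cd209b, was at 0 in both SAM fibers libraries but had 198 raw counts in replicate 1. The member that rose was Stab1, a scavenger receptor gene, at 172 and 304 CPM in SAM fibers, against 31.1 and 60.4 CPM in sATM (2.38 ± 0.55, adjusted p = 0.023), with an adjusted p of 0.248 without sATM replicate 1 and 0.0736 without replicate 2. The call of Stab1 was also lost without vATM replicate 1 or 2, and its raw counts gave -0.38. The members called lower numbered 2 without sATM replicate 2 and 8 without SAM fibers replicate 2, and the list's median was 0.10 without sATM replicate 2.

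Lyz1, a lysozyme gene, was at 34.1 and 35.8 CPM in SAM fibers, against 161 and 1536 CPM in sATM (log2 fold change -4.60 ± 0.96 (SE), adjusted p = 0.0131), and without sATM replicate 2 its adjusted p was 0.131. The eosinophil-associated ribonuclease gene Ear2 was at 15.8 and 10.6 CPM in SAM fibers, against 117 and 338 CPM in sATM (log2 fold change -4.11 ± 0.64 (SE), adjusted p = 0.0023) and was called in all 15 leave-one-out fits. Ear3 and Ear12 had identical values to each other (-3.98 ± 0.59 each), and reads of these near-identical ribonuclease genes may be shared, so that the 3 cannot be taken as separate results. Fn1, which encodes fibronectin, was at 207 and 139 CPM in SAM fibers, against 855 and 2614 CPM in sATM (-3.33 ± 0.84, adjusted p = 0.0355). Its adjusted p was 0.0742 without SAM fibers replicate 1, 0.0541 without SAM fibers replicate 2 and 0.18 without sATM replicate 2, and the call was also lost without Microglia replicate 3. Fgfr1, a fibroblast growth factor receptor gene, was at 12.9 and 7.29 CPM in SAM fibers, against 49.7 and 192 CPM in sATM (-3.60 ± 0.77, adjusted p = 0.015, and 0.126 without sATM replicate 2).

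Abcg1, a cholesterol efflux transporter gene, was at 4.18 and 14.8 CPM in SAM fibers, against 89.4 and 57.6 CPM in sATM (log2 fold change -2.92 ± 0.50 (SE), adjusted p = 0.00418), with 938 and 416 raw counts in SAM fibers, against 609 and 979 raw counts in sATM. Abcc1, an efflux transporter of glutathione conjugates, was at 0.897 and 6.87 CPM in SAM fibers, against 55.3 and 43.7 CPM in sATM (-3.60 ± 0.64), with 2507 and 1082 raw counts in SAM fibers, against 507 and 1241 raw counts in sATM. Under TMM scaling, the raw log2 fold change was -2.48 for Abcg1 and -1.03 for Abcc1. Both were called in all 15 leave-one-out fits, and the share of genes at 0 in spite of at least 100 raw counts was larger in SAM fibers (40.0 and 21.5%) than in sATM (8.12 and 14.3%). The part of counting region or DNA correction in these decreases was not tested.

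Genes known as microglial markers were mostly higher in SAM fibers, with 13 positive and 3 negative log2 fold changes. In the raw counts P2ry12 and P2ry13, both called higher, gave -0.09 and -0.28, against 1.03 for Siglech, 0.17 for Sparc and 2.56 for Gpr84. Of 17 tested members 9 rose and 0 fell, with a median of 1.36, and 7 or 8 were called without any one of the 4 libraries. Siglech, a sialic acid-binding lectin gene also known from plasmacytoid dendritic cells, was at 46.0 and 88.9 CPM in SAM fibers, against 3.82 and 8.39 CPM in sATM (log2 fold change 3.42 ± 0.46 (SE), adjusted p = 0.00118). Sparc, a matricellular protein gene, was at 168 and 91.6 CPM in SAM fibers, against 15.8 and 19.2 CPM in sATM (2.88 ± 0.36), Gpr34, a lysophosphatidylserine receptor gene, at 98.9 and 56.2 CPM in SAM fibers, against 13.8 and 12.6 CPM in sATM (2.55 ± 0.38), and Gpr84, a receptor for medium-chain fatty acids, at 27.8 and 122 CPM in SAM fibers, against 4.33 and 1.38 CPM in sATM (4.82 ± 0.75). For Gpr34 the raw counts gave -0.71, opposite in sign to the call but near the median of -0.63 over all tested genes. In all 4 genes both SAM fibers values exceeded both sATM values, and all 4 were called in all 15 leave-one-out fits.

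Transcripts of nerve and blood cells were higher in SAM fibers too. Of 19 tested sympathetic neuron genes 9 rose and 0 fell, with a median of 3.62. The summed level of all 21 such genes, tested or not, was 1292 and 654 CPM in SAM fibers, against 129 and 53.9 CPM in sATM. Npy, which encodes the co-transmitter neuropeptide Y, was at 189 and 78.5 CPM in SAM fibers, against 10.9 and 6.55 CPM in sATM (log2 fold change 3.95 ± 0.52 (SE), adjusted p = 0.00105), and Map1b, an axonal microtubule protein gene, at 286 and 171 CPM in SAM fibers, against 20.9 and 12.2 CPM in sATM (3.80 ± 0.53). Pcsk1n, a proprotein convertase inhibitor gene of secretory granules, was at 76.2 and 38.7 CPM in SAM fibers, against 0 and 0.575 CPM in sATM (7.24 ± 1.07). Of 10 tested catecholamine synthesis genes 0 were called by edgeR, 2 were called higher without SAM fibers replicate 2, 2 with genes at 0 in spite of raw counts left out, 1 under DESeq2 size factors and 4 by DESeq2. Dbh, dopamine beta-hydroxylase, was at 87.3 and 18.5 CPM in SAM fibers, against 7.38 and 1.95 CPM in sATM (3.54 ± 1.07, adjusted p = 0.0721), passing the test without SAM fibers replicate 2 or Microglia replicate 2. Of 13 Schwann cell and satellite glia genes 6 rose and 0 fell with a median of 3.29. Apod, an apolipoprotein gene of glia and fibroblasts, was at 65.8 and 46.2 CPM in SAM fibers, against 1.02 and 1.03 CPM in sATM (5.74 ± 1.05, adjusted p = 0.00627, 0.0737 without sATM replicate 1 and 0.0873 without sATM replicate 2). Of 7 tested hemoglobin and erythroid genes 5 rose and 0 fell. The summed level of all 9 such genes, tested or not, was 6393 and 2309 CPM in SAM fibers, against 511 and 194 CPM in sATM. Hbb-bs was at 1734 and 649.8 CPM in SAM fibers, against 140.1 and 55.1 CPM in sATM (3.61 ± 0.63, adjusted p = 0.00476, and 0.0523 without sATM replicate 2), and the globin paralogs may share reads. Of 11 fibroblast genes 3 rose and 1, Fn1, fell, and the number that rose was 1 without SAM fibers replicate 1 and 0 without either sATM library.

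Neuron and hemoglobin transcripts were higher in replicate 1 than in replicate 2 of SAM fibers, with median log2 differences of 1.08 and 1.43, against a lower level of cytokines and feedback inhibitors in that library. The number of called neuron genes was 4 without SAM fibers replicate 1 and 3 without sATM replicate 2, that of Schwann cell and satellite glia genes was 3 without SAM fibers replicate 1 and 1 without either sATM library, and that of erythroid genes was 0 without sATM replicate 2. Of 9 tested adipocyte genes 0 were called in either direction by edgeR, which in so short a list is near the 4.84% of all tested genes. The summed level of all 13 adipocyte genes, tested or not, was 142 and 97.0 CPM in SAM fibers, against 129 and 80.2 CPM in sATM. The part that nerve, glial and blood cell RNA has in the other differences was not tested.

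Several lists of macrophage functions gave few or no calls, while 4.84% of all tested genes were called in either direction. In lists this short 0 calls is near that share and is no result about the members. No member of the lysosomal list (28 tested), the cytosolic ribosomal protein list (26 tested), the interferon-stimulated list (16 tested) or the norepinephrine handling list (10 tested) was called by edgeR, and with each of the 4 libraries left out in turn 3 lysosomal genes were called lower without SAM fibers replicate 2 or sATM replicate 1, 3 interferon-stimulated genes and 1 ribosomal protein gene lower without SAM fibers replicate 2, and 1 norepinephrine handling gene higher without sATM replicate 2. DESeq2 called 0 lysosomal and 0 interferon-stimulated genes, 1 ribosomal protein gene lower and 1 norepinephrine handling gene higher. Maoa, which encodes a norepinephrine-degrading oxidase, was at 20.3 and 13.5 CPM in SAM fibers, against 0 and 4.71 CPM in sATM (2.74 ± 1.05, adjusted p = 0.15). Slc6a2, the norepinephrine transporter, was at 21.2 and 5.0 CPM in SAM fibers, against 2.80 and 0 CPM in sATM (3.29 ± 1.74, adjusted p = 0.277), with 854 and 270 raw counts in SAM fibers, against 20 and 124 raw counts in sATM. Adrb1, the beta-1 adrenergic receptor gene, was called higher at 53.2 and 15.6 CPM in SAM fibers, against 12.5 and 2.64 CPM in sATM (2.24 ± 0.60, adjusted p = 0.0452), but was called in 2 of the 15 leave-one-out fits, and without SAM fibers replicate 1 its adjusted p was 0.365. MHC class II genes had 1 call in each direction among 11 tested. The lower one is at 0 in spite of at least 100 raw counts, and 0 were lower with such genes left out or without SAM fibers replicate 1. Without SAM fibers replicate 2, 1 was higher and 2 lower, without sATM replicate 1, 0 were higher and 1 lower, and without sATM replicate 2, 0 were called in either direction. Ccr2, the chemokine receptor of inflammatory monocytes, was at 198 and 336 CPM in SAM fibers, against 1031 and 1027 CPM in sATM (-1.95 ± 0.80, adjusted p = 0.18), below both sATM values in both SAM fibers libraries without passing the test.

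The comparison of SAM ganglia with vATM gave 171 higher genes (1.12% of those tested) and 112 lower genes (0.733%), with a median of 0.10. These counts were 39 and 32 without vATM replicate 1, and 46 and 35 without vATM replicate 2. They were 275 and 212 without SAM fibers replicate 1, 299 and 217 without SAM fibers replicate 2, and 56 lower without SAM ganglia replicate 3, with 74 and 73 without SAM ganglia replicates 2 and 1. Called higher in both comparisons were 77 genes, 27.2% of those higher in SAM fibers and 45.0% of those higher in SAM ganglia. Called lower in both were 31 genes, 6.78% of those lower in SAM fibers and 27.7% of those lower in SAM ganglia. Of the genes higher in SAM fibers 88.7% had a positive log2 fold change in SAM ganglia over vATM, against 54.4% of all tested genes, and of those lower in SAM fibers 70.7% had a negative one, against 45.2%.

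Retnla, Cd209f and Ear2 fell in both comparisons. Retnla was at 149.8, 12.9 and 76.8 CPM in SAM ganglia, against 9629 and 6119.5 CPM in vATM (log2 fold change -6.63), and Cd209f at 0.462, 0.664 and 0 CPM in SAM ganglia, against 207 and 254 CPM in vATM (-9.09). Ccl4, Tlr2, Siglech, Npy and Hbb-bs rose in both, with Ccl4 at 464, 269.9 and 399 CPM in SAM ganglia, against 78.7 and 73.1 CPM in vATM (2.31). The difference between the 2 log2 fold changes passed an adjusted p of 0.05 for 127 genes (0.831% of those tested), which included 26 of the 283 genes higher and 78 of the 457 genes lower in SAM fibers. Of the 23 immediate-early genes 8 passed. Egr1 was at 431, 261 and 365 CPM in SAM ganglia, against 228 and 141 CPM in vATM (0.93), and its difference was 3.94 ± 0.56, adjusted p = 0.00601. Cxcl1 was at 11.8, 27.9 and 35.1 CPM in SAM ganglia, against 23.5 and 18.3 CPM in vATM (0.26), with a difference of 5.18 ± 1.02, adjusted p = 0.0265. In the ganglion comparison 1 of the 23 immediate-early genes and 5 of 16 interferon-stimulated genes were called higher. Of all 16 interferon-stimulated genes 1 passed the test of the difference.

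**Figure D5:**
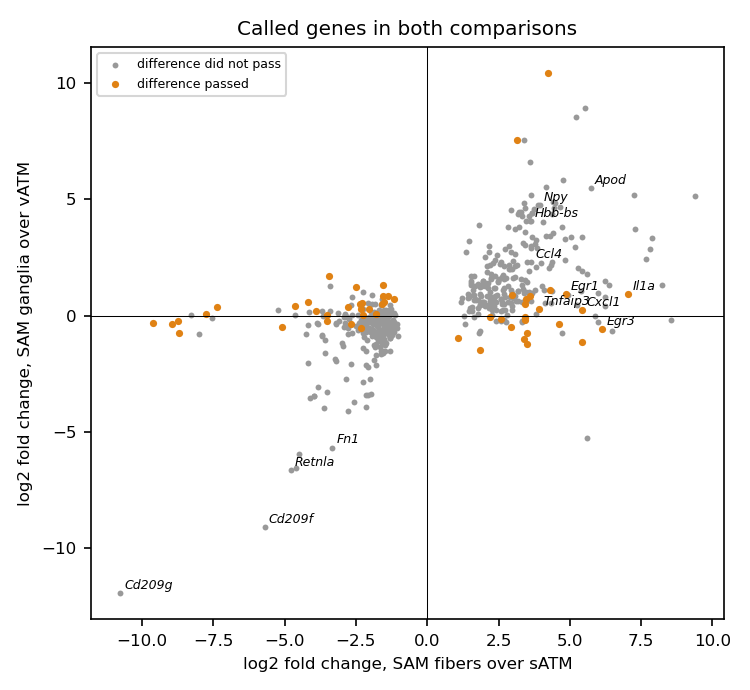
Log2 fold change of SAM ganglia over vATM (vertical axis) against that of SAM fibers over sATM (horizontal axis) for the genes called in SAM fibers over sATM, without those at 0 in a library holding at least 100 raw counts. Orange points passed the test of the difference between the 2 log2 fold changes and grey points did not. Retnla, Cd209f, Cd209g and Fn1 lie far below 0 on both axes, while Egr1, Egr3 and Cxcl1 lie far right at vertical positions between -0.58 and 0.93.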

How the data were processed

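RNA of F4/80+CD45+ cells sorted ex vivo was sequenced by a low-input method in 15 libraries. The authors deposited estimated counts per gene after removal of DNA contamination, raw counts over whole gene bodies, and RPKM values. Per the submitters' processing notes, STAR, HOMER and the build mm10 were used. Versions, settings, the strand of counting and the DNA correction are not given in sources used here. The corrected table holds values that are not whole numbers, and they were rounded to whole numbers before testing. CPM were computed after TMM scaling.

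Differences were tested with edgeR 4.0.16 in R 4.3.3 (glmQLFit and glmQLFTest) on all 15 libraries with 1 mean per group, so that the 6 groups share an estimate of the spread. Genes were kept with filterByExpr at a minimum count of 10, and called genes had a Benjamini-Hochberg adjusted p below 0.05 over 15289 genes together with a log2 fold change of 1 or more in either direction. The standard error is the log2 fold change divided by the root of F. The common biological coefficient of variation was 0.680. Alternatives used limma 3.58.1 and DESeq2 1.42.0, the deposited RPKM with a pseudocount of 0.1 or 1, and the raw counts. Intervals and floors of 3 counts cover counting error only.

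Named genes were the markers Ccl4, Egr1, Retnla and Cd209f, the 15 largest called changes in each direction at 30 CPM or more without overlap or a 0 that had at least 100 raw counts, up to 5 members of each list, Adgre1, Ptprc and the genes of norepinephrine handling. Some genes that met this rule are not named. They were left out after their values were seen, mostly because their call or sign changed between settings, so the named genes are more stable than the rule alone would give. A few other results are not reported here. Members and lists were chosen with earlier results of these data known. The test of the difference between the 2 comparisons and the counts of list members with a library left out were added after seeing the data. Where leaving out a library left 1 in a group, that library was assumed to vary like the other groups.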

Additional observations from a re-analysis of the deposited data

Results flagged for a closer look

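The following genes are listed because the log2 fold change of SAM fibers over sATM differed from that of SAM ganglia over vATM by an interaction contrast of the edgeR fit. Among immediate-early genes the difference was 6.71 ± 1.24, adjusted p = 0.0211 for Egr3, 4.69 ± 0.58, adjusted p = 0.00194 for Csrnp1, 3.94 ± 0.56, adjusted p = 0.00601 for Egr1, 2.90 ± 0.58, adjusted p = 0.0282 for Fosb, 2.76 ± 0.46, adjusted p = 0.0117 for Ier2 and 2.07 ± 0.44, adjusted p = 0.0385 for Btg2. Among cytokines, chemokines and their inhibitor it was 6.13 ± 1.34, adjusted p = 0.0452 for Il1a, 5.18 ± 1.02, adjusted p = 0.0265 for Cxcl1, 3.63 ± 0.68, adjusted p = 0.0211 for Tnfaip3 and 3.51 ± 0.72, adjusted p = 0.0322 for Tnf. For Mmp13, a collagenase gene at 41.2 and 90.4 CPM in SAM fibers, against 0.764 and 2.07 CPM in sATM, it was 6.55 ± 1.40, adjusted p = 0.0407, and its own comparison of SAM fibers with sATM had an adjusted p of 0.0131, 0.122 without sATM replicate 1 and 0.0828 without sATM replicate 2. For Tlr3, a receptor of double-stranded RNA, the fitted difference was -9.36 ± 1.5, adjusted p = 0.0117, but Tlr3 was listed at 0 in both SAM fibers libraries while it had 335 and 90 raw counts in SAM fibers, against 20 and 77 raw counts in sATM, so this value is no measure of size. The 2 comparisons differ in tissue and in enzyme treatment, which cannot be told apart.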

How the results depend on the processing

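The 2 SAM fibers and 2 sATM libraries limit every value, and no call survived a fit of those 4 alone or of the raw gene-body counts. The counts of higher and lower genes in SAM fibers over sATM were 1027 and 796 by DESeq2, 103 and 5 by voom, and 0 and 0 for each of those 2 fits. The higher count was 610 on log2(RPKM + 1). The lower count was 281 under DESeq2 size factors, 689 without a filter and 293 on log2(RPKM + 0.1). Leaving out each library gave 96 to 464 higher and 170 to 2515 lower genes. For SAM ganglia over vATM the counts were 454 and 257 by DESeq2, 611 and 505 by voom, 257 and 198 without a filter, 367 and 256 with the 2 groups alone, and 0 and 3 in the raw counts (482 genes at an unadjusted p under 0.05). The lower count was 51 on log2(RPKM + 0.1), and leaving out each library gave 39 to 299 higher and 32 to 217 lower genes.

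A set of 72 genes was followed across settings. In the raw counts the sign turned among them for Dnajb1 (-0.20), Hsp90aa1 (-2.47), Zfp36l1 (-0.17), Stab1 (-0.38), Tlr3 (0.12), Gpr34 (-0.71), Adrb1 (-0.89), Adgre1 (-1.57) and Hspa1a (-1.60). The raw median was -0.63 over all tested genes. Of the 271 called higher genes without a 0 that had at least 100 raw counts, 75 were lower in the raw counts. Leaving out each library gave -0.17 to 0.59 for Adgre1, turned without sATM replicate 1, and -0.051 to 0.90 for Hspa1a, turned without SAM fibers replicate 2. The cause was not tested. Of 1938 pairs of a gene followed across settings and a setting 1678 kept direction and side of the threshold, 233 lost the call, 16 gained it and 11 turned. Genes whose call or sign changed had mostly been left out beforehand. These shares therefore do not measure how stable the called genes are in general. With genes listed at 0 in a whole group set to their bound, the median of the fibroblast list moved by 0.31 and that of no other list whose median is given moved by more than 0.001.

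Deviations of same-numbered SAM fibers and sATM libraries correlated at r = -0.09. This value alone cannot show whether same-numbered libraries were collected or processed together. With replicate as a block, 258 genes were higher and 407 lower in SAM fibers, and 169 higher and 104 lower in SAM ganglia.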

Other observations

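Genes outside the lists that rose in SAM fibers included signalling and extracellular proteins. Bmp2, a bone morphogenetic protein gene, was at 94.5 and 271 CPM in SAM fibers, against 3.56 and 5.06 CPM in sATM (log2 fold change 5.38 ± 0.96 (SE), adjusted p = 0.00537), with an adjusted p of 0.0517 without sATM replicate 1. Gem, a GTPase gene, was at 63.1 and 118 CPM in SAM fibers, against 0 and 4.14 CPM in sATM (5.29 ± 1.18, adjusted p = 0.0195, and 0.0804 without sATM replicate 1). Camk2n1, an inhibitor of calcium/calmodulin-dependent kinase II that is abundant in neurons, was at 91.8 and 19.2 CPM in SAM fibers, against 0 and 0.345 CPM in sATM (7.83 ± 1.42, adjusted p = 0.00585), with adjusted p = 0.0556 without sATM replicate 1 and 0.0523 without sATM replicate 2. Camk2n1 was, like the sympathetic neuron genes, higher in replicate 1 than in replicate 2 of SAM fibers, whereas Bmp2 and Gem were higher in replicate 2.

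Among lower genes, Zdhhc21, a palmitoyltransferase gene, was at 2.39 and 4.16 CPM in SAM fibers, against 40.0 and 21.5 CPM in sATM (-3.19 ± 0.66, adjusted p = 0.0125), with 1298 and 430 raw counts in SAM fibers, against 236 and 442 raw counts in sATM. Steap3, a ferrireductase gene of endosomal iron uptake, was at 0.897 and 2.50 CPM in SAM fibers, against 17.1 and 46.9 CPM in sATM (-4.18 ± 0.78, adjusted p = 0.00719, and 0.0945 without sATM replicate 2), with 876 and 229 raw counts in SAM fibers, against 90 and 654 raw counts in sATM.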
